A study of Mus musculus with 12 samples.

Results

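Fatty acid oxidation genes and targets of PPAR alpha were followed in mouse liver as a list of 39 genes, chosen by name for their place in the pathway, with earlier results of these data known. Of these, 37 were measured, each by 1 probe set, the group of probes that reads 1 transcript cluster, among 28213 probe sets and 19937 gene symbols on the array. Acsl1 had no probe set with its symbol alone, and Acsl3 was found only on a probe set shared with another gene. Neither was used. The 12 arrays held liver RNA of wild-type C57BL/6 mice, 6 weeks old by the sample labels. Each group of 3 arrays came from mice given 1 subcutaneous dose of Albulin, Insulin-Apo or insulin glargine, all at 55 nmol/kg, or saline, and the livers were taken 6 h later. Albulin is insulin fused to albumin, in Insulin-Apo a single-chain insulin is joined to apolipoprotein A-I, and both were made in bacteria. Insulin glargine is a long-acting insulin analogue. The study's methods describe mice of a further age at purchase and female sex, without saying which arrays this covers, and describe no insulin glargine arrays, so this group rests on the labels. The feeding state of the mice is not given in the sources used here. The labels name no disease model.

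Fatty acids are activated to acyl-CoA, passed into mitochondria by the carnitine shuttle, and shortened stepwise by acyl-CoA dehydrogenases, hydratases, hydroxyacyl-CoA dehydrogenases and thiolases, while electron transfer flavoprotein carries the electrons to the respiratory chain. Peroxisomes shorten very long and branched chains. PPAR alpha, encoded by Ppara, is a nuclear receptor that binds fatty acids, pairs with RXR and switches on many of these genes in the fasted liver. Insulin is known to restrain hepatic fatty acid oxidation, partly through malonyl-CoA, which inhibits carnitine palmitoyltransferase 1.

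All values are log2 expression values, so a difference of 1 is a doubling. Arrays of a group correlated with r of 0.990 to 0.997. All 37 members lay above the floor of 5 used to leave out dim probe sets, with means over the 12 arrays between 9.66 and 14.28. The 9 hepatocyte markers measured summed to log2 levels of 17.5 to 17.6 in every group, and limma called none of them in any of the 6 comparisons (at most 3 at an unadjusted p under 0.05). The 4 adipocyte, 6 skeletal muscle and 4 exocrine pancreas markers measured gave no call and none at an unadjusted p under 0.05. The summed log2 level of 9 neutrophil markers was 10.9 to 11.1 after Albulin, 10.8 to 11.0 after Insulin-Apo, 10.3 to 10.5 after insulin glargine and 10.4 to 10.6 after saline, with gene means of 6.01 or more in every group. In whole liver, fewer cells of a type and less RNA per cell cannot be told apart. Nothing in the labels or methods ties each array to a mouse of its own, so p values cover the scatter of these arrays, which could be technical.

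Some arrays stood apart for these genes. In saline replicate 2, 30 of the 37 members (81.1%) had the lowest value of their group, against 31.8% of all probe sets. The median member there lay 0.14 below the mean of the other 2 saline arrays. Albulin replicate 2 held the lowest value for 25 members (67.6%, against 33.7% of all probe sets). Insulin glargine replicate 3 held the highest value for 24 members (64.9%, against 48.9% of all probe sets) and had the lowest mean correlation with its group, 0.990. Counts of members called are therefore also given without each of these arrays.

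**Figure D1:**
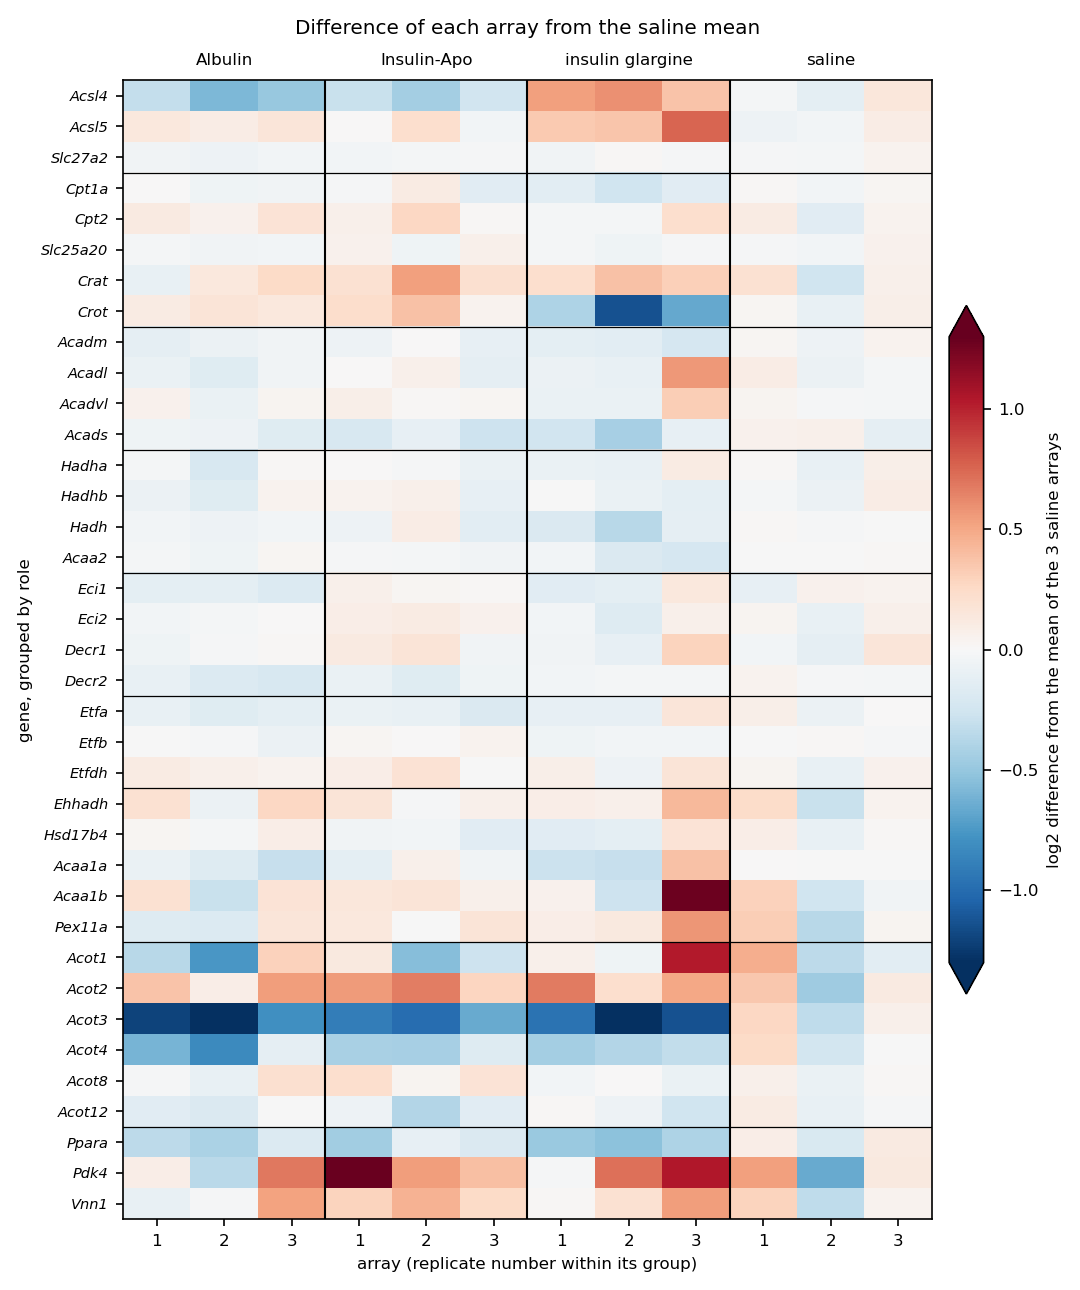
Log2 difference of each of the 12 arrays (columns, by group and replicate) from the mean of the 3 saline arrays for the 37 members (rows, grouped by role), red higher and blue lower, with the colour scale ending at -1.3 and 1.3. Acot3 was lower in all 9 insulin-treated arrays, Acsl4 was higher in the 3 insulin glargine arrays and lower in the 6 arrays of the fusion proteins, and Crot was lower in the 3 insulin glargine arrays.

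Few of the fatty acid oxidation genes were called against saline, as was so for all probe sets. After Albulin, Acot3 and Acsl4 fell and none rose, so that 2 of 37 members (5.41%) were called, against 2.41% of all 25989 probe sets tested. The call rule was a B statistic over 0, B being the log odds of a difference in limma. After Insulin-Apo none of the 37 was called, against 2.14% of all probe sets. With limma, 4 members were higher and 4 lower than in saline at an unadjusted p under 0.05 (9.13% and 8.28% of all probe sets), and 1, Acot3, was lower at an adjusted p under 0.05 (3.73% of all probe sets passed it). After insulin glargine, Acsl4 rose and Crot and Acot3 fell against saline, so that 3 of 37 (8.11%) were called, against 4.84% of all 26027 probe sets tested.

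Among the insulins, Acsl4 was higher and Crot lower after insulin glargine than after Albulin (2 of 37, against 4.35% of all probe sets) and than after Insulin-Apo (2 of 37, against 4.84%). Albulin and Insulin-Apo differed in none of the 37 genes by limma, against 0.639% of all probe sets. None passed an adjusted p under 0.05 either (0.139% of all probe sets), and 1, Eci1, was lower after Albulin at an unadjusted p under 0.05. In the other comparisons an adjusted p under 0.05 was reached by 2 members after Albulin (4.69% of all probe sets) and 5 after insulin glargine against saline (10.9%), and by 2 after insulin glargine against Albulin (8.94%) and 3 against Insulin-Apo (10.8%). A moderated F test over the 4 groups passed 5 of the 37 members at an adjusted p under 0.05, namely Acsl4, Acsl5, Crot, Acot3 and Ppara (13.5%, against 13.3% of all probe sets). The F count was 3 without Albulin replicate 1 and 3 without saline replicate 1, in both cases Acsl4, Crot and Acot3.

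The median member differed little from saline. Its log2 fold change was -0.04 after Albulin (0.00 over all probe sets), 0.00 after Insulin-Apo (-0.02 over all probe sets) and -0.03 after insulin glargine (-0.00 over all probe sets). Without regard to direction, the median log2 fold change of the members was 0.10 after Albulin, 0.09 after Insulin-Apo and 0.15 after insulin glargine. Over all probe sets it was 0.08, 0.08 and 0.10. Without saline replicate 2, 5 members had a positive and 32 a negative log2 fold change after Albulin (median -0.07), where the 3 saline arrays gave 13 and 24. The same array left out gave 15 positive and 22 negative after Insulin-Apo, where the 3 saline arrays gave 19 and 18. After insulin glargine, 15 were positive and 22 negative with all arrays, 13 and 24 without saline replicate 2 (median -0.03), 10 and 27 without insulin glargine replicate 3 (median -0.08), and 5 and 32 with saline replicate 2 and insulin glargine replicate 3 both left out (median -0.11). The 3 comparisons with saline share the saline arrays. Saline replicate 2 and insulin glargine replicate 3 were singled out by low and high values of these same members. Leaving them out therefore moves the fold changes against saline downward by the choice of array. Such counts were not made over all probe sets. The members called without saline replicate 2 numbered 2 after Albulin, 1 after Insulin-Apo and 2 after insulin glargine against saline, and 2 were called after insulin glargine without insulin glargine replicate 3. Without Albulin replicate 2 they numbered 1 after Albulin, 1 after Insulin-Apo and 2 after insulin glargine. Between the fusion proteins, 6 members were higher and 31 lower after Albulin than after Insulin-Apo (median -0.06, against 0.02 over all probe sets). Without Albulin replicate 2, 13 were higher and 24 lower (median -0.02). That array was singled out by low values of these members, so leaving it out moves the Albulin values upward.

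Arrays of the 2 groups did not overlap for 9 of 37 members between Albulin and saline (23.3% of all probe sets did not overlap), for 5 between Insulin-Apo and saline (23.1%) and for 12 between insulin glargine and saline (24.8%). The count was 4 between Albulin and Insulin-Apo (18.6%), 7 between insulin glargine and Albulin (23%) and 7 between insulin glargine and Insulin-Apo (25.4%). These are 10.8% to 32.4% of the members, and most of the differences behind them were small.

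**Figure D2:**
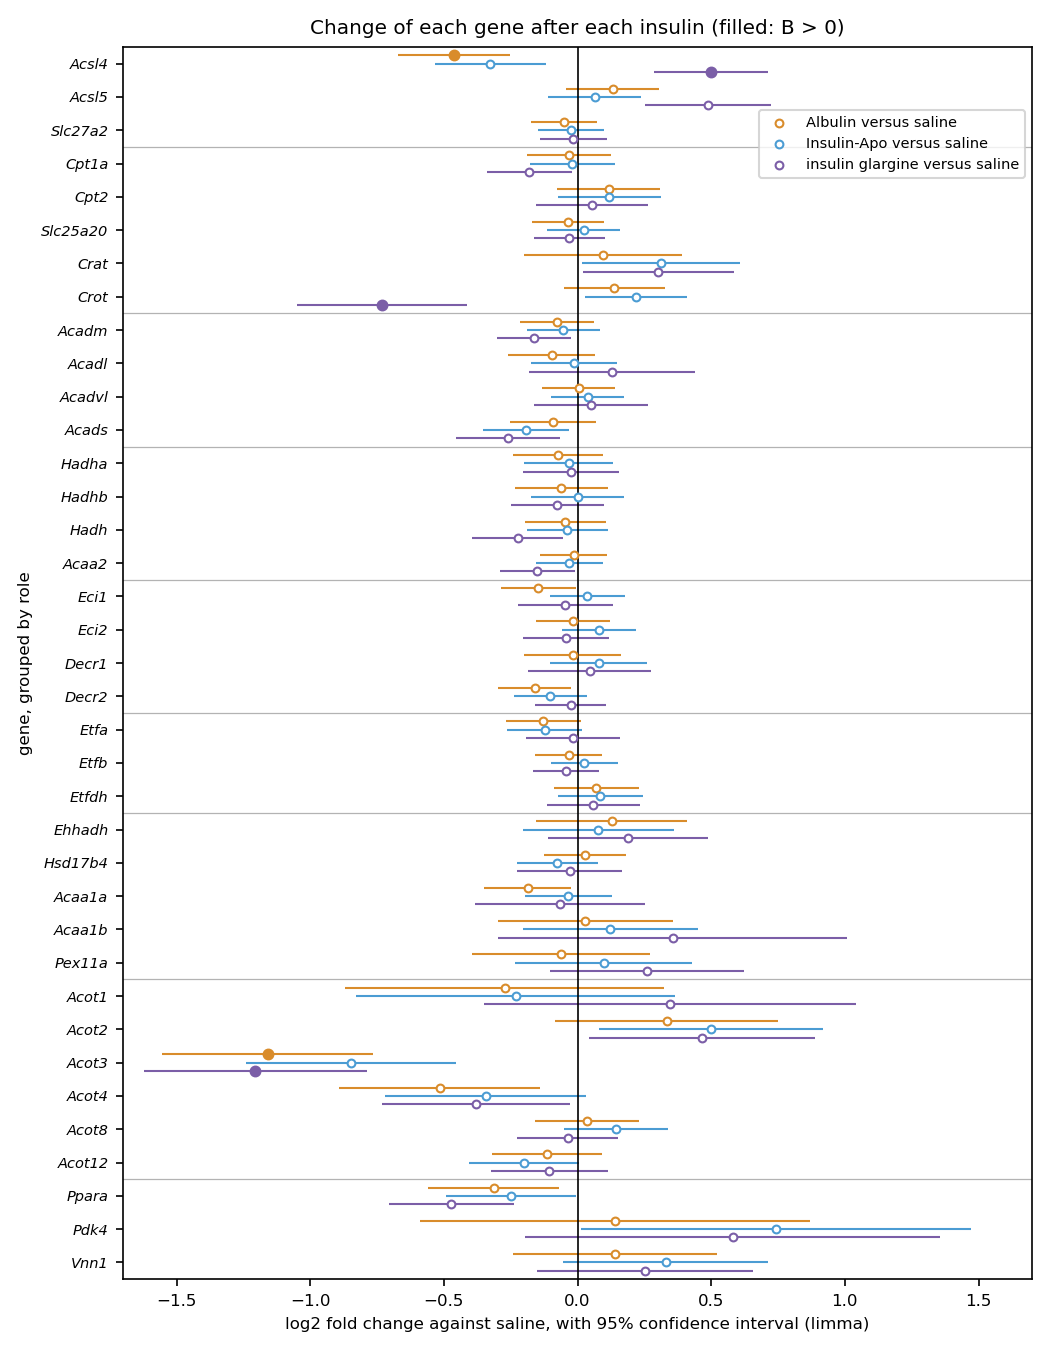
Log2 fold change against saline (x axis) of each of the 37 members (y axis, grouped by role) after Albulin, Insulin-Apo and insulin glargine, with 95% confidence intervals from limma over 3 arrays per group, filled where B was over 0. The genes of the mitochondrial spiral in the middle of the plot lie between -0.26 and 0.13, while Acsl4, Crot and Acot3 carry the filled points.

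Activation of fatty acids held the gene with the smallest p of the list. Acsl4, an acyl-CoA synthetase that prefers arachidonic acid, fell after Albulin and rose after insulin glargine. It read 11.04, 10.76 and 10.85 after Albulin, 11.06, 10.91 and 11.10 after Insulin-Apo, 11.88, 11.94 and 11.72 after insulin glargine, and 11.33, 11.22 and 11.50 after saline. The 3 insulin glargine arrays were the highest of the 12, the 6 arrays of the fusion proteins were the lowest, and saline lay between them without overlap. The log2 fold change was -0.46 after Albulin (SE 0.09, adjusted p = 0.0210, limma), or 1.38-fold lower, and -0.33 after Insulin-Apo (SE 0.09, adjusted p = 0.0887), which was not called. After insulin glargine it was 0.50 against saline (SE 0.10, adjusted p = 0.00597), 0.96 against Albulin (adjusted p = 9.68e-05) and 0.83 against Insulin-Apo (adjusted p = 0.000245). The differences between insulin glargine and each fusion protein were called in all 23 alternatives tried for each. Albulin and Insulin-Apo differed by -0.14, with a 95% confidence interval of -0.34 to 0.07.

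Both calls of Acsl4 against saline depended on the scaling and on single arrays. With the arrays centred on their medians neither was called, at -0.46 after Albulin (adjusted p = 0.0316) and 0.51 after insulin glargine (adjusted p = 0.0122). After Albulin the call was lost without Albulin replicate 2 (log2 fold change -0.40, adjusted p = 0.0739), Albulin replicate 3 (-0.45, adjusted p = 0.0708), Insulin-Apo replicate 1 (adjusted p = 0.0292), Insulin-Apo replicate 3 (adjusted p = 0.0254), saline replicate 1 (-0.47, adjusted p = 0.0560) or saline replicate 3 (-0.39, adjusted p = 0.0648). After insulin glargine it was lost without saline replicate 1 (0.49, adjusted p = 0.0257), saline replicate 2 (0.44, adjusted p = 0.0339), insulin glargine replicate 1 (0.48, adjusted p = 0.0201) or insulin glargine replicate 2 (0.45, adjusted p = 0.0226). Beside these values, the median of 9 neutrophil markers differed from saline by 0.49 after Albulin, 0.32 after Insulin-Apo and -0.16 after insulin glargine. Against saline, 3 of 9 were called higher after Albulin (2.41% of all probe sets were called). None was called after Insulin-Apo (2.14%) or insulin glargine (4.84%). After insulin glargine, 6 of 9 were called lower than after Albulin (4.35% of all probe sets were called) and 4 of 9 lower than after Insulin-Apo (4.84%). Of 11 Kupffer cell and macrophage markers, 2 were lower after insulin glargine than after Insulin-Apo (median -0.30), and none was called against Albulin (median -0.33, 4 lower at an unadjusted p under 0.05 with limma). The part of either list in the values of Acsl4 was not tested.

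Acsl5, a synthetase of the endoplasmic reticulum and mitochondria, was highest after insulin glargine. Its values were 12.25, 12.22 and 12.27 after Albulin, 12.12, 12.33 and 12.08 after Insulin-Apo, 12.46, 12.48 and 12.88 after insulin glargine, and 12.05, 12.08 and 12.22 after saline. All 3 insulin glargine arrays lay above the other 9, and replicate 3 stood highest. Against saline its log2 fold change was 0.49 (SE 0.11, adjusted p = 0.0116), with B at -0.43 and therefore not called, 0.50 with the arrays centred on their medians, which was called (adjusted p = 0.00865), and 0.35 without insulin glargine replicate 3. It was 0.13 after Albulin and 0.06 after Insulin-Apo, with overlapping arrays. Slc27a2, a transporter and synthetase for very long chains, stayed within 14.23 and 14.34 on all 12 arrays.

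**Figure D3:**
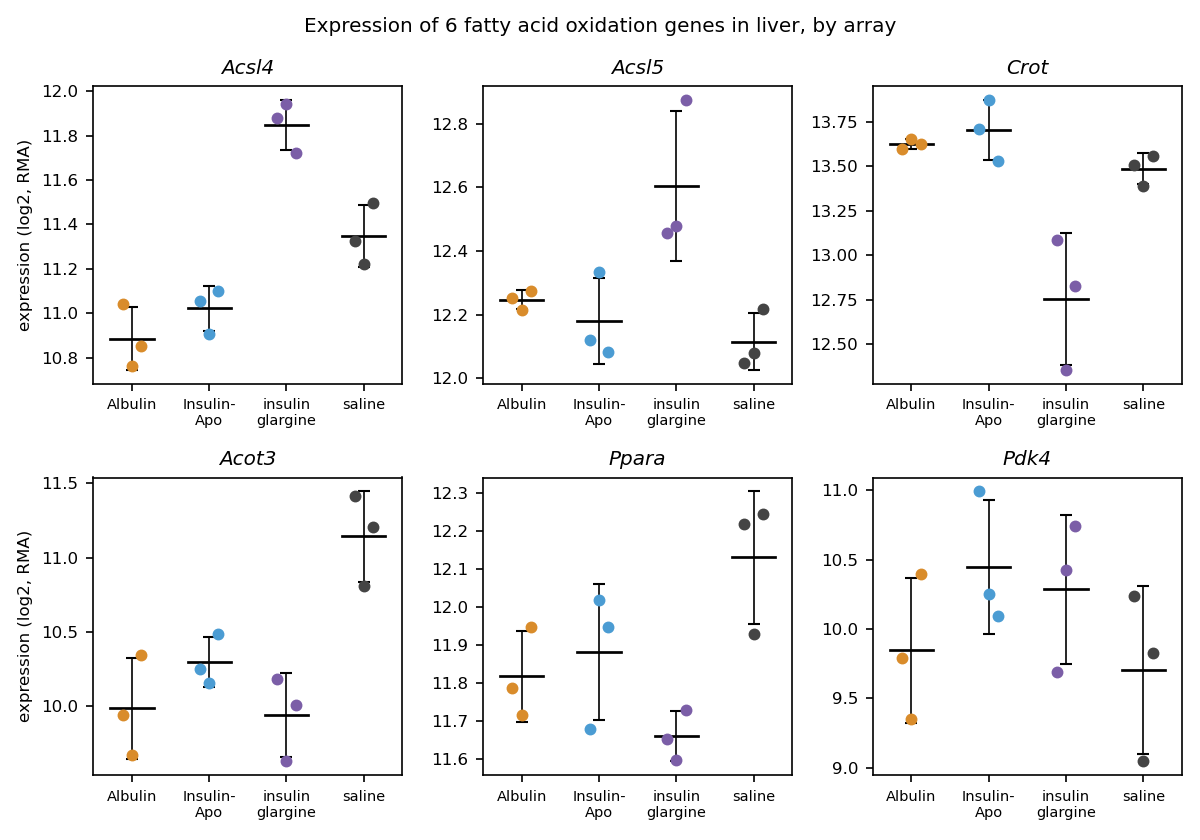
Log2 expression (y axis) of Acsl4, Acsl5, Crot, Acot3, Ppara and Pdk4 on each of the 3 arrays per group (points), with the group mean (horizontal line) and SD (error bar). The insulin glargine points lie above all others for Acsl4 and Acsl5 and below all others for Crot. For Acot3 the saline points lie above all others, whereas the Pdk4 points of all groups overlap.

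In the carnitine shuttle, Crot alone was called, and only with insulin glargine. Crot, the peroxisomal carnitine octanoyltransferase that hands shortened chains over to carnitine, fell to 13.09, 12.36 and 12.83 after insulin glargine, against 13.51, 13.39 and 13.56 after saline. It read 13.60, 13.65 and 13.63 after Albulin and 13.71, 13.87 and 13.53 after Insulin-Apo. The 3 insulin glargine arrays were the lowest of the 12, spread over a wider range than any other group. The log2 fold change after insulin glargine was -0.73 against saline (SE 0.15, adjusted p = 0.00677, 1.66-fold lower), -0.87 against Albulin (SE 0.15, adjusted p = 0.00266) and -0.95 against Insulin-Apo (SE 0.15, adjusted p = 0.00146). After the fusion proteins it was 0.14 (Albulin) and 0.22 (Insulin-Apo) against saline, neither of them called. The differences from the fusion proteins were called in 22 of 23 alternatives each and that from saline in 10 of 23.

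The call of Crot against saline was lost when Albulin replicate 1, 2 or 3, Insulin-Apo replicate 1, saline replicate 1, 2 or 3, or insulin glargine replicate 3 was left out. Its log2 fold change without 1 of these arrays was -0.69 without saline replicate 3 (adjusted p = 0.0297), -0.72 without saline replicate 1 (0.0272), -0.78 without saline replicate 2 (0.0196) and -0.77 without insulin glargine replicate 3 (0.010). With 1 of the named arrays of the fusion proteins left out it was -0.73 (adjusted p of 0.0111 to 0.0124).

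Cpt1a, the hepatic carnitine palmitoyltransferase 1 that sets the entry of long chains into mitochondria, read 13.46, 13.40 and 13.41 after Albulin, 13.43, 13.56 and 13.30 after Insulin-Apo, 13.31, 13.19 and 13.31 after insulin glargine, and 13.46, 13.41 and 13.47 after saline. Its 3 insulin glargine arrays lay below the 3 saline arrays, by -0.18 on the log2 scale (SE 0.07, adjusted p = 0.160), which was not called. The fold changes after the fusion proteins were -0.03 (Albulin, 95% confidence interval -0.19 to 0.13) and -0.02 (Insulin-Apo, -0.18 to 0.14). Cpt2, the inner-membrane partner of Cpt1a, and Slc25a20, the carrier between them, differed from saline by -0.04 to 0.12 in the 3 comparisons. Crat, which makes acetylcarnitine, had fold changes of 0.10, 0.31 and 0.30 after Albulin, Insulin-Apo and insulin glargine, none called.

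The 15 genes of the spiral itself, its auxiliary enzymes and electron transfer gave no call in any comparison. They comprise the 4 acyl-CoA dehydrogenases, Hadha, Hadhb, Hadh and Acaa2 for the later steps, Eci1, Eci2, Decr1 and Decr2 for unsaturated chains, the last of these and Eci2 in peroxisomes, and Etfa, Etfb and Etfdh. With limma 0 of 15 were called and 0 passed an adjusted p under 0.05 in any of the 6 comparisons. Since 0.639% to 4.84% of all probe sets were called in these, a count of 0 among 15 is near the background. At an unadjusted p under 0.05, 2 were lower after Albulin, 1 after Insulin-Apo and 4 after insulin glargine than after saline, and none was higher. Over all probe sets 9.08%, 8.28% and 11.9% were lower at that threshold and 8.98%, 9.13% and 10.6% higher. The log2 fold changes against saline ran from -0.16 for Decr2 up to 0.07 after Albulin, from -0.19 for Acads up to 0.09 after Insulin-Apo and from -0.26 for Acads up to 0.13 after insulin glargine. In the 6 comparisons every 95% confidence interval of these 15 genes lay within 0.5 of 0 on the log2 scale, except that of Acadl between insulin glargine and Albulin, which reached 0.54.

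Acads, the short-chain dehydrogenase, read 11.94, 11.92 and 11.84 after Albulin, 11.79, 11.89 and 11.73 after Insulin-Apo, 11.75, 11.56 and 11.89 after insulin glargine, and 12.04, 12.06 and 11.87 after saline. The groups overlapped, and the difference after insulin glargine, -0.26 (SE 0.09, adjusted p = 0.0881), was not called. Acadm, the medium-chain dehydrogenase and a textbook PPAR alpha target, read 13.48, 13.52 and 13.55 after Albulin, 13.53, 13.60 and 13.49 after Insulin-Apo, 13.46, 13.46 and 13.37 after insulin glargine, and 13.62, 13.53 and 13.64 after saline. Its insulin glargine arrays lay below all others by a small margin, -0.16 against saline (95% confidence interval -0.30 to -0.02, adjusted p = 0.141).

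Hadh, which oxidises short hydroxyacyl-CoA, gave 13.62, 13.58 and 13.61 after Albulin, 13.58, 13.74 and 13.51 after Insulin-Apo, 13.46, 13.29 and 13.53 after insulin glargine, and 13.66, 13.64 and 13.64 after saline. The insulin glargine arrays again lay below saline without overlap, by -0.22 (SE 0.08, adjusted p = 0.0964), not called. Decr2, the peroxisomal dienoyl-CoA reductase, had 13.27, 13.19 and 13.16 after Albulin, 13.28, 13.21 and 13.31 after Insulin-Apo, 13.34, 13.35 and 13.35 after insulin glargine, and 13.41, 13.35 and 13.34 after saline. The arrays of both fusion proteins lay below saline, by -0.16 (Albulin) and -0.10 (Insulin-Apo), neither called.

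For Etfa, the alpha subunit of electron transfer flavoprotein, the values were 12.35, 12.29 and 12.32 after Albulin, 12.36, 12.35 and 12.26 after Insulin-Apo, 12.34, 12.34 and 12.61 after insulin glargine, and 12.52, 12.37 and 12.45 after saline. The fusion protein arrays lay below the saline arrays, by -0.13 and -0.12, and insulin glargine replicate 3 was the highest of the 12. Etfb, the beta subunit, varied least of all members, with an SD within groups of 0.026.

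None of the 5 genes grouped as peroxisomal oxidation and division (Ehhadh, Hsd17b4, Acaa1a, Acaa1b and Pex11a) was called in any comparison, and none reached an unadjusted p under 0.05 with limma except Acaa1a after Albulin (-0.19, adjusted p = 0.205). Ehhadh, the bifunctional enzyme of peroxisomal oxidation and a strong PPAR alpha target, read 14.11, 13.84 and 14.18 after Albulin, 14.08, 13.90 and 13.98 after Insulin-Apo, 13.99, 13.98 and 14.33 after insulin glargine, and 14.15, 13.63 and 13.96 after saline. Pex11a, which takes part in peroxisome division, had 11.87, 11.87 and 12.19 after Albulin, 12.17, 12.03 and 12.21 after Insulin-Apo, 12.12, 12.17 and 12.61 after insulin glargine, and 12.36, 11.68 and 12.08 after saline. For both genes all groups overlapped, saline replicate 2 was the lowest array and insulin glargine replicate 3 the highest. Their fold changes after insulin glargine were 0.19 (95% confidence interval -0.11 to 0.49) and 0.26 (-0.10 to 0.62), and 0.07 and 0.11 without insulin glargine replicate 3.

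Acaa1b, a peroxisomal thiolase, rested on that array as well, with 12.67 in insulin glargine replicate 3 against 11.46 and 11.13 in the other insulin glargine arrays. Its log2 fold change against saline was 0.36 with the array (SE 0.30) and -0.10 without it. Acaa1a and Acaa1b, and likewise Acot1 and Acot2, are close copies, and how the array's probes divide the signal between them is uncertain.

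The largest change lay among the acyl-CoA thioesterases, which split acyl-CoA into free fatty acid and coenzyme A. In mouse, 4 type I genes lie beside each other on chromosome 12 in the RefSeq order Acot2, Acot1, Acot4 and Acot3, with the lncRNA gene Gm40474 between Acot1 and Acot4. Acot1 encodes a cytosolic, Acot2 a mitochondrial, and Acot3 and Acot4 peroxisomal enzymes, and all are induced by PPAR alpha ligands in mouse liver. Any part of the upstream bases in the array values of these genes was not tested. The 250 bases before each start are shown from RefSeq (GRCm38.p6), with the hexamer recognised by nuclear receptors (AGGTCA, here as TGACCT on the other strand) in capitals:
Acot2 (chr12:83987611-83987860, plus strand): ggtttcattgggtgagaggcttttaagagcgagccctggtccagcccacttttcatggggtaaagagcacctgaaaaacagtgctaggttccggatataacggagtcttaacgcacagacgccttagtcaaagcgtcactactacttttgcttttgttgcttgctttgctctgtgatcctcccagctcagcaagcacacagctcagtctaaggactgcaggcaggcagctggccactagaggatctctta
Acot1 (chr12:84009252-84009501, plus strand): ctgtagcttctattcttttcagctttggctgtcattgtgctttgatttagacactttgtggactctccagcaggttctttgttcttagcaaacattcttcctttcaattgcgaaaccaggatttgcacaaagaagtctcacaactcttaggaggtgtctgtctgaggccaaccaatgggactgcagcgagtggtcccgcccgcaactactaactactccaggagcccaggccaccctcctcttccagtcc
Acot4 (chr12:84038129-84038378, plus strand): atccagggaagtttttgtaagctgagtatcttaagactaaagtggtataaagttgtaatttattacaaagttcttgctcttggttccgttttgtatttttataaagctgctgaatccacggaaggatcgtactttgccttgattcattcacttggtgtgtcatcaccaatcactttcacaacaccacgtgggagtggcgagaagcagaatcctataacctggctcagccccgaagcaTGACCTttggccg
Acot3 (chr12:84051894-84052143, plus strand): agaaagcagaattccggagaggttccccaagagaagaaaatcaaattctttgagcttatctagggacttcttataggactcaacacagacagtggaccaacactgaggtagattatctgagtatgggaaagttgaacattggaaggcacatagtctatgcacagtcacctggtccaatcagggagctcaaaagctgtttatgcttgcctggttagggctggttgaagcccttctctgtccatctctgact

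Only the Acot4 window holds the hexamer, and pairwise identity between the 4 windows was 44.1% to 48.4%. Of 34 members with a RefSeq window, 6 (17.6%) held AGGTCA on either strand, namely Acadm, Acadvl, Acot12, Acot4, Cpt1a and Slc27a2, against 3740 of 27025 windows of all genes (13.8%). None of the 34 held the direct repeat AGGTCANAGGTCA, in which the hexamer occurs at both ends, against 10 of 27025 (0.037%), nor the looser AGGNCANAGGNCA, which includes it, against 90 (0.333%). These are letter matches in a short window and not binding sites.

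Acot3 fell to 9.94, 9.67 and 10.34 after Albulin, 10.25, 10.15 and 10.48 after Insulin-Apo, and 10.18, 9.63 and 10.01 after insulin glargine, against 11.41, 10.81 and 11.21 after saline. Every array of the 3 insulins lay below every saline array. The group means were 9.98 ± 0.34 (Albulin), 10.30 ± 0.17 (Insulin-Apo), 9.94 ± 0.28 (insulin glargine) and 11.14 ± 0.31 (saline, SD, n = 3 each). The log2 fold change was -1.16 after Albulin (SE 0.18, adjusted p = 0.00534, 2.23-fold lower) and -1.20 after insulin glargine (SE 0.19, adjusted p = 0.00173, 2.30-fold lower). These were called in 20 of 20 and 23 of 23 alternatives.

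After Insulin-Apo the log2 fold change of Acot3 was -0.85 (SE 0.18, adjusted p = 0.0274), with B at -0.12, just short of a call. It was called without saline replicate 2 (-1.01, adjusted p = 0.0284), without Albulin replicate 2 (-0.85, adjusted p = 0.0280) or without Albulin replicate 3 (-0.85, adjusted p = 0.0167), and the adjusted p ran from 0.0108 up to 0.0985 over 20 alternatives. Albulin and Insulin-Apo differed by -0.31 (95% confidence interval -0.71 to 0.08), insulin glargine and Albulin by -0.05 (-0.46 to 0.37) and insulin glargine and Insulin-Apo by -0.36 (-0.78 to 0.06), none called.

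Its neighbour Acot4, which also splits succinyl-CoA, had values of 10.68, 10.47 and 11.17 after Albulin, 10.86, 10.86 and 11.12 after Insulin-Apo, 10.85, 10.91 and 10.97 after insulin glargine, and 11.54, 11.05 and 11.29 after saline. Only insulin glargine lay below saline without overlap. The fold changes were -0.52, -0.34 and -0.38 after Albulin, Insulin-Apo and insulin glargine, none called with all arrays. The Albulin difference was called only without Albulin replicate 3 (-0.72, adjusted p = 0.0279).

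Acot2 had fold changes in the other direction, 0.33 after Albulin (95% confidence interval -0.08 to 0.75), 0.50 after Insulin-Apo (0.08 to 0.92) and 0.47 after insulin glargine (0.04 to 0.89), none called. Without saline replicate 2, where Acot2 read 11.80 against 12.61 and 12.38 in the other saline arrays, these were 0.10, 0.27 and 0.23. Acot1 gave -0.27, -0.23 and 0.35 in the same order, with an SD within groups of 0.48, and 0.01 after insulin glargine without insulin glargine replicate 3. Acot8, of peroxisomes, and Acot12, a cytosolic acetyl-CoA hydrolase, lay between -0.20 and 0.14 of saline.

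Ppara itself was lower in most insulin-treated arrays. It read 11.79, 11.72 and 11.95 after Albulin, 11.68, 12.02 and 11.95 after Insulin-Apo, 11.65, 11.60 and 11.73 after insulin glargine, and 12.22, 11.93 and 12.24 after saline. Insulin glargine lay below saline without overlap, while 1 Albulin and 2 Insulin-Apo arrays overlapped with the lowest saline array. The log2 fold change was -0.31 after Albulin (adjusted p = 0.154), -0.25 after Insulin-Apo (adjusted p = 0.276) and -0.47 after insulin glargine (SE 0.11, adjusted p = 0.0138, B at -0.67), none called. The insulin glargine difference was called without saline replicate 2 (-0.57, adjusted p = 0.00933) and without Insulin-Apo replicate 1 (-0.47, adjusted p = 0.00933). The order of the means was insulin glargine (11.66), Albulin (11.82), Insulin-Apo (11.88) and saline (12.13), and neighbouring insulins differed by no more than their spread (95% confidence interval of -0.39 to 0.08 between insulin glargine and Albulin and of -0.31 to 0.18 between Albulin and Insulin-Apo).

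Among the members, the pattern over the 12 arrays was most like that of Ppara for Acot3 (Pearson r = 0.86), Acadm (0.80) and Acot4 (0.75). Over all probe sets with 1 symbol it was most like that of Stx2 (r = 0.92), Ago1 (0.92), Sap130 (0.92), Paqr7 (0.90) and Clstn3 (0.89). These are the highest of many correlations over 12 arrays that share their group differences, and they are given as a description.

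Pdk4, the kinase that shuts pyruvate dehydrogenase and spares glucose when fat is burnt, varied more than any other member, with an SD within groups of 0.54. It read 9.79, 9.35 and 10.39 after Albulin, 10.99, 10.25 and 10.09 after Insulin-Apo, 9.69, 10.42 and 10.74 after insulin glargine, and 10.24, 9.04 and 9.83 after saline. All groups overlapped. The fold changes were 0.14 after Albulin (95% confidence interval -0.59 to 0.87), 0.74 after Insulin-Apo (0.01 to 1.47, adjusted p = 0.279) and 0.58 after insulin glargine (-0.19 to 1.36), and -0.19, 0.41 and 0.25 without saline replicate 2. The intervals after Insulin-Apo and insulin glargine hold a change of 1 as well as values near 0. Vnn1, a pantetheinase and PPAR alpha target, had fold changes of 0.14, 0.33 and 0.25, none called, and -0.03, 0.16 and 0.09 without saline replicate 2.

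The 12 members with the largest SD within groups were Pdk4, Acot1, Acaa1b, Acot2, Acot3, Vnn1, Pex11a, Acot4, Crot, Acaa1a, Acadl and Ehhadh. Their deviations from the group means correlated over the 12 arrays with a median r of 0.62 (66 pairs, -0.13 to 0.95), and 0.63 without insulin glargine replicate 3 (lowest -0.65). The median over all 666 pairs of members was 0.31. These correlations share arrays and are a description. The 12 genes were chosen by the size of these same deviations, which can raise their r. Deviations sum to 0 within a group, so the arrays of a group do not deviate independently. Ehhadh and Pex11a had an r of 0.92, Acot3 and Acot4 of 0.82, and Pdk4 and Vnn1 of 0.79, whereas Crot and Pdk4 had -0.13. That of Acadl and Acaa1a was 0.88 with insulin glargine replicate 3 and 0.05 without it. All 12 genes lay above their group mean in insulin glargine replicate 3 and saline replicate 1 and all 12 below it in saline replicate 2. In Albulin replicate 3, 11 lay above it, and in Albulin replicate 2, 10 lay below it.

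**Figure D4:**
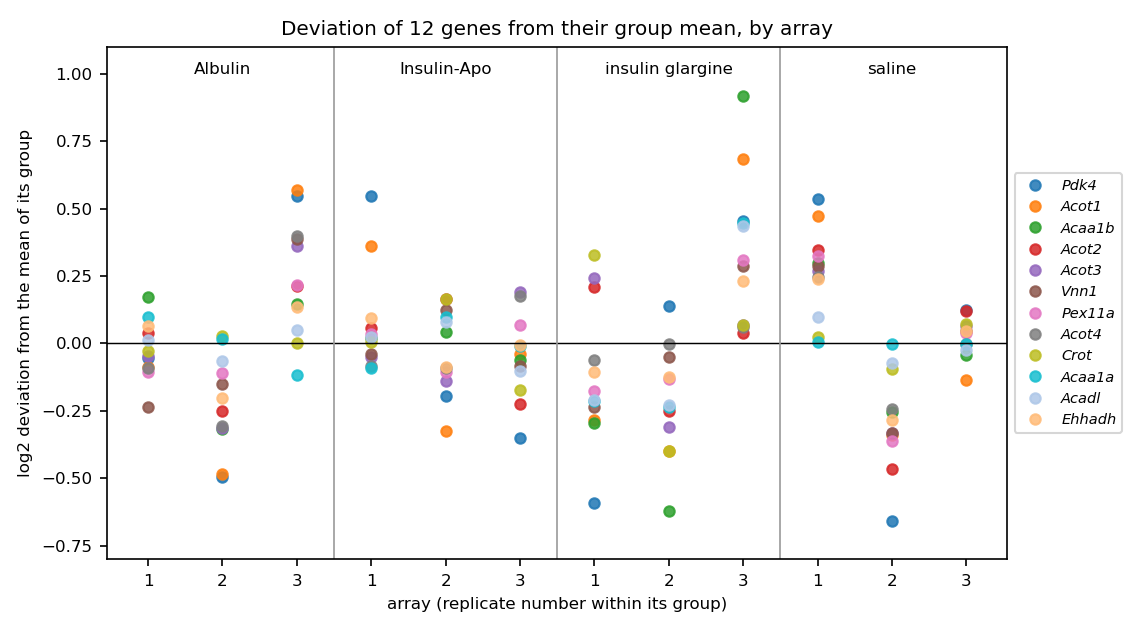
Log2 deviation (y axis) of the 12 members with the largest SD within groups from the mean of their own group on each of the 12 arrays (x axis, by group and replicate). All 12 points lie above 0 in insulin glargine replicate 3 and saline replicate 1 and all 12 below it in saline replicate 2, whereas in Insulin-Apo replicate 2 they divide into 6 and 6.

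Other genes of the pathway were read from lists written by function. Of 15 other PPAR alpha targets measured, none was called after Albulin, 1 was higher after Insulin-Apo (Plin2) and 1 was higher after insulin glargine (Cidec) against saline. At an unadjusted p under 0.05 with limma, 4 of the 15 were higher after Albulin, 5 after Insulin-Apo and 3 after insulin glargine. None of the 15 was lower, and over all probe sets 8.98%, 9.13% and 10.6% were higher at that threshold. The medians were 0.01, 0.15 and 0.10 after Albulin, Insulin-Apo and insulin glargine, beside 0.00, -0.02 and -0.00 over all probe sets. Cidec, a lipid droplet protein, averaged 9.59 after Albulin, 10.36 after Insulin-Apo, 11.45 after insulin glargine and 9.69 after saline. Its log2 fold change after insulin glargine was 1.75 against saline (SE 0.36, adjusted p = 0.00821) and 1.85 against Albulin (adjusted p = 0.00658).

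Against saline, 1 of 14 coactivators, partners and regulators measured was called lower after Albulin and 1 was called higher after insulin glargine. None was called with Insulin-Apo against saline. By unadjusted limma p (under 0.05), 1 gene was higher and 5 were lower with Albulin than with saline. These counts were 1 and 2 with Insulin-Apo, and 2 and 4 with insulin glargine. Over all probe sets, 8.98%, 9.13% and 10.6% were higher and 9.08%, 8.28% and 11.9% lower by that measure, in the same order. After insulin glargine, 2 were called higher than after Albulin, and 2 higher than after Insulin-Apo. Ppargc1b, a coactivator of oxidative genes, fell after Albulin (8.31 against 8.95 after saline, log2 fold change -0.64, SE 0.12, adjusted p = 0.0127) and averaged 8.40 after Insulin-Apo and 9.24 after insulin glargine. Foxo1, a transcription factor that insulin signalling shuts out of the nucleus, averaged 10.22 after Albulin, 10.20 after Insulin-Apo, 11.33 after insulin glargine and 10.38 after saline. Its fold change after insulin glargine was 0.95 against saline (SE 0.20, adjusted p = 0.00895), 1.11 against Albulin (adjusted p = 0.00404) and 1.13 against Insulin-Apo (adjusted p = 0.00341).

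Of 20 other oxidation enzymes and transporters measured, none was called after Albulin or Insulin-Apo against saline, and 3 were lower after insulin glargine. At an unadjusted p under 0.05 with limma, 4 were lower after Albulin, 10 lower and 1 higher after Insulin-Apo and 8 lower after insulin glargine, beside 9.08%, 8.28% and 11.9% of all probe sets that were lower. Amacr, the racemase for branched-chain acyl-CoA, averaged 12.02 after insulin glargine against 12.61 after saline (-0.60, SE 0.09, adjusted p = 0.00145). Hacl1, the lyase of alpha oxidation, had a fold change of -0.46 (adjusted p = 0.00485), and Abcd2, a peroxisomal transporter of very long chains, of -0.62 (adjusted p = 0.00792). Acox2, the branched-chain acyl-CoA oxidase, was higher after insulin glargine than after Insulin-Apo by 0.42 (SE 0.08, adjusted p = 0.00350). Amacr was also lower than after Albulin (-0.46) and Insulin-Apo (-0.48), and Hacl1 than after Insulin-Apo (-0.47).

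Several of these calls outside the list of 39 rested on single arrays. Against saline, the call of Foxo1 after insulin glargine held in 11 of 23 alternatives, with log2 fold changes of 0.86 to 1.05, and was lost without any 1 of the saline or insulin glargine arrays, Albulin replicate 1 or 2, or Insulin-Apo replicate 3. That of Cidec held in 10 of 23 (1.12 to 1.96) and was lost without any 1 of the Albulin or saline arrays, or insulin glargine replicate 1 or 3. That of Abcd2 held in 10 of 23 (-0.75 to -0.51) and was lost without any 1 of the saline arrays, Albulin replicate 1 or 3, Insulin-Apo replicate 2, or insulin glargine replicate 2 or 3. Hacl1 held in 16 of 23 (-0.56 to -0.39) and was lost without saline replicate 1 or 3 or insulin glargine replicate 2 or 3, whereas Amacr held in 22 of 23. The call of Ppargc1b after Albulin held in 15 of 20 (-0.73 to -0.50) and was lost without saline replicate 1 or 2. Between the insulins, the call of Amacr against Albulin held in 10 of 23 and was lost without any 1 of the Albulin or Insulin-Apo arrays, saline replicate 2 or 3, or insulin glargine replicate 3, and its call against Insulin-Apo held in 18 of 23 and was lost without any 1 of the Insulin-Apo arrays. Cidec against Albulin was lost without any 1 of the Albulin arrays or insulin glargine replicate 3, Foxo1 against Albulin without Albulin replicate 1 or 2 or insulin glargine replicate 1, and Foxo1 against Insulin-Apo without Insulin-Apo replicate 3 or insulin glargine replicate 1. Hacl1 against Insulin-Apo was lost without Insulin-Apo replicate 1 or 3 or insulin glargine replicate 2 or 3, and Acox2 without insulin glargine replicate 2.

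Among the 3 pyruvate dehydrogenase kinases beside Pdk4, Pdk2 fell after all insulins. It read 11.05, 11.00 and 10.91 after Albulin, 10.82, 10.67 and 10.99 after Insulin-Apo, 10.95, 11.04 and 10.92 after insulin glargine, and 11.61, 11.80 and 11.44 after saline, with no overlap between any insulin and saline. Its fold changes were -0.63 (SE 0.10, adjusted p = 0.00772), -0.79 (SE 0.10, adjusted p = 0.00357) and -0.65 (SE 0.10, adjusted p = 0.00155), and no difference between the insulins was called. The call after Albulin was lost without Albulin replicate 3 (-0.59, adjusted p = 0.0318).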

How the data were processed

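Liver RNA of 12 samples was measured on Mouse Gene 1.0 ST arrays (Affymetrix). The authors corrected the background and normalized with RMA, which the submitters' processing notes also name. They deposited log2 expression for 28213 probe sets. For the RMA version and the annotation build, the sources used here give nothing. Raw intensities were not used.

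Groups were taken from the sample labels. The 39 genes, their roles and all gene and marker lists were chosen with earlier results of these data known. Genes were matched by symbol to probe sets with exactly 1 symbol. Probe sets had to exceed 5 on 2 or more arrays of 1 group (25989 for the 9 arrays of Albulin, Insulin-Apo and saline, 26027 for all 12). limma 3.58.1 in R 4.3.3 was fitted to the 9 arrays for comparisons among those groups, and to all 12 for those with insulin glargine and the moderated F test. P values were adjusted over all probe sets with the Benjamini-Hochberg method, and a call was B over 0 at a prior proportion of 0.01. This and the filter follow the study's methods. Confidence intervals are 95% intervals of the fit. The procedure was tested on simulated data. The number of arrays limits the precision.

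Array values were given for members called in any comparison, for Ppara, Cpt1a, Pdk4, Acadm and Ehhadh, and for the member of each role with the smallest F-test p. Of the other pathway genes, the 8 called genes with the smallest F-test p were named. Acsl5, Acot1, Acot2, Acot4, Acaa1a, Acaa1b, Acadl, Crat, Eci1, Vnn1 and Plin2 were named after their values were seen. Alternatives were no filter and a stricter filter (over 6), median-centred arrays, a second quantile normalization, a block for the replicate number, a trended prior variance, array weights, the mean of a gene's probe sets, an adjusted p under 0.05 as the call, all 12 arrays or only 6, and each array left out in turn. Leaving out saline replicate 2 and insulin glargine replicate 3 together was chosen after the data were seen. Several alternatives leave a member's fold change as it was and alter only its spread estimate and adjustment. These are the filters, the mean of a gene's probe sets, and refits without an array of a group not compared. Counts of alternatives are therefore not counts of independent tests. Upstream sequences were read from a RefSeq table (GRCm38.p6), which held 34 of the 39 genes. Plots were made in Python 3.11.15 with matplotlib 3.10.9.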

Additional observations from a re-analysis of the deposited data

How the results depend on the processing

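Acsl4, Acsl5, Crot, Acot3, Acot4 and Ppara of the 37 genes were followed across the alternatives. So were Amacr, Hacl1, Abcd2, Acox2, Cidec, Foxo1, Ppargc1b, Pdk2 and Plin2 beside them. Each was followed only in comparisons where it was called, in the main fit or, for the 37 genes, in an alternative. None changed direction there, which this choice favours. Members not followed did change direction. Examples are Acaa1b after insulin glargine without insulin glargine replicate 3, and Pdk4 and Vnn1 after Albulin without saline replicate 2. With that saline array left out, the members with a positive log2 fold change after Albulin went from 13 to 5. Without insulin glargine replicate 3, those positive after insulin glargine against saline went from 15 to 10. With the arrays centred on their medians, 1 of the 37 genes (Acot3) was called after Albulin against saline. After Insulin-Apo against saline, 1 gene (Acot3) was called with repeated quantile normalization, with the mean over a gene's probe sets, with an adjusted p under 0.05 as the call, and with saline replicate 2 and insulin glargine replicate 3 both left out. With an adjusted p under 0.05 as the call, 5 genes were called after insulin glargine against saline (Acsl4, Acsl5, Crot, Acot3 and Ppara). With only the 6 arrays of the groups compared, 1 gene was called after insulin glargine against saline (Acot3), 1 against Albulin and 1 against Insulin-Apo (Acsl4 in both), where fewer arrays estimate the spread. Leaving out 1 array at a time gave 1 to 2 calls after Albulin and 0 to 1 after Insulin-Apo against saline, 0 to 0 between Albulin and Insulin-Apo, 1 to 3 after insulin glargine against saline, 2 to 2 against Albulin and 2 to 2 against Insulin-Apo, and 3 to 5 genes by the F test. The other causes were not tested.

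Same-numbered arrays showed no strong shared deviation (18 pairs, r of -0.26 to 0.14, 2 over 0.1). Such correlations cannot show whether the numbers mark paired samples. With the replicate number as a block, 1 gene (Acot3) was called after Insulin-Apo against saline, and Crot after insulin glargine against saline was not (adjusted p = 0.0123). Ppara no longer passed the F test, which then passed 4 genes, and no other call among the 37 genes changed. Of the other genes, the block ended the calls of Ppargc1b after Albulin against saline, Cidec after insulin glargine against saline and Albulin, Amacr against Albulin and Ppargc1b against Insulin-Apo.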

Other observations

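Plin2, the main coat protein of lipid droplets in hepatocytes and a PPAR alpha target, was picked after its values were seen. It read 13.45, 13.53 and 13.66 after Albulin, 13.78, 14.06 and 13.48 after Insulin-Apo, 13.08, 13.11 and 13.84 after insulin glargine, and 13.08, 12.69 and 13.02 after saline. The arrays of the fusion proteins lay above the saline arrays, and those of insulin glargine overlapped with saline. Its log2 fold change was 0.84 after Insulin-Apo (SE 0.14, adjusted p = 0.00989, limma), which was called, 0.61 after Albulin (SE 0.14, adjusted p = 0.0325, not called) and 0.41 after insulin glargine (adjusted p = 0.232). The call after Insulin-Apo held in 19 of 20 alternatives. It was lost in the fit to all 12 arrays, the fit that gave the insulin glargine value. The direct difference of Albulin from Insulin-Apo was -0.23 (SE 0.14, adjusted p = 0.518).

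Of the other pyruvate dehydrogenase kinases, Pdk1 had log2 fold changes of 0.01 after Albulin, -0.41 after Insulin-Apo and -0.44 after insulin glargine against saline, and Pdk3 of -0.06, 0.07 and 0.58, with no call for either gene. Of 11 Kupffer cell and macrophage markers measured, none was called after Albulin, 1 was higher after Insulin-Apo and none was called after insulin glargine against saline with limma. At an unadjusted p under 0.05, 2 were higher after Albulin, 5 higher after Insulin-Apo and 2 lower after insulin glargine. Of 9 markers of liver sinusoidal endothelial cells, 1 was lower after insulin glargine than after Albulin and 1 than after Insulin-Apo.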
